A study of Mus musculus with 9 samples.

Results

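The 9 genes described here encode liver enzymes that break down aromatic amino acids, histidine and serine, namely Tat, Hpd, Hgd, Gstz1 and Fah of tyrosine breakdown, Tdo2 of tryptophan breakdown, Hal and Uroc1 of histidine breakdown, and Sds of serine breakdown. They were taken by symbol from a count table of 28956 genes, and all 9 passed the filter on low counts that left 17582 genes for testing. The measurements are read counts of poly(A) RNA from the livers of C57BL6J mice aged 8 weeks, in 9 libraries of 3 groups with 3 libraries each. Mice of all groups, the controls included, had received APAP (a common abbreviation of acetaminophen, a painkiller that damages hepatocytes at high dose) intraperitoneally at 300 mg/kg. The group APAP had no cells. APAP_MSC and APAP_HDF mice were given 500000 MSC or HDF cells each through a vein 90 min after APAP, and the series title places the samples at 24 h. What MSC and HDF stand for is not spelled out in the labels, and no liver without APAP was sequenced, so each comparison is between injured livers. Hepatocytes are entered as the cell type, but the protocol describes RNA from a piece of whole liver. The 3 samples of a group are not said to be 3 different animals, and p-values therefore refer only to the spread among these samples, which may be technical. Library numbers in the text follow the column order within a group.

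In the liver, amino acids that are not used for protein are stripped of nitrogen and their carbon skeletons are burned or turned into glucose. Tyrosine is taken apart in a fixed order by Tat, Hpd, Hgd, Gstz1 and Fah down to fumarate and acetoacetate, and inherited loss of Fah, Hpd or Tat causes the tyrosinaemias, while loss of Hgd causes alkaptonuria. Tat, Tdo2 and Sds are textbook targets of glucocorticoids and glucagon, which raise them in fasting and stress, and Sds, Hal and Uroc1 are most abundant in hepatocytes around the portal vein.

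Levels are given as CPM, read counts brought to a common library size with TMM scaling. Totals ran from 53267231 to 63175573 counts per library, and the 9 genes together held 2147 to 5434 CPM. A gene was called changed where the edgeR quasi-likelihood test gave a Benjamini-Hochberg adjusted p under 0.05 over the 17582 genes, two-sided. Differences are log2 fold changes with their standard error (SE).

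Promoters of 4 members are shown. Hgd and Fah stand for the members whose APAP_MSC libraries all lay above those of both other groups. Tat and Tdo2 stand for the members whose groups overlapped. Each sequence holds the 250 bases before the gene's start in the RefSeq table for GRCm38.p6, read on the gene's own strand from 5′ to 3′, with motif matches in capitals. The data tables use the build GRCm39, so these positions were not joined to the counts. The windows are chr8:109990186-109990435 on the plus strand for Tat, chr16:37579903-37580152 on the plus strand for Hgd, chr7:84605943-84606192 on the minus strand for Fah and chr3:81975729-81975978 on the minus strand for Tdo2.
Tat: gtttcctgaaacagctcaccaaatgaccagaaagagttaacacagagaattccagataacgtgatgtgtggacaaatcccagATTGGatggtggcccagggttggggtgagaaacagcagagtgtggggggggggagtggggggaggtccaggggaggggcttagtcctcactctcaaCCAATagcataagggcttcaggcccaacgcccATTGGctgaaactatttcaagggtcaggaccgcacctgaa
Tdo2: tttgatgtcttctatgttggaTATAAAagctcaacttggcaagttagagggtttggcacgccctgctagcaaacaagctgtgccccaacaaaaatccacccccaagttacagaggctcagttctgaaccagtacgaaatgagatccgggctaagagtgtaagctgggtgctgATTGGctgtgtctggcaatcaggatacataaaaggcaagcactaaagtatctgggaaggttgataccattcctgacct
Hgd: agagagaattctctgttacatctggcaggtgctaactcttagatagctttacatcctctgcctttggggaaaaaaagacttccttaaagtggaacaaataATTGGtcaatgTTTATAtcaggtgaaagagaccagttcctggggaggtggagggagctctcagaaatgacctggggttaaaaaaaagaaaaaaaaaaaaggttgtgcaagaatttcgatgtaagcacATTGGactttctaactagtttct
Fah: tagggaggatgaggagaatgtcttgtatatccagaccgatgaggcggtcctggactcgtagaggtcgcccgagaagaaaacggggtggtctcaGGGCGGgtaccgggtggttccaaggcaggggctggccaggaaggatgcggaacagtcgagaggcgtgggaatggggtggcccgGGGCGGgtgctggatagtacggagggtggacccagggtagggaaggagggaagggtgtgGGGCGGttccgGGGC

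Of the 9 members, 8 had an entry in the RefSeq promoter table, Gstz1 with 2 starts. Windows of 300 bases, from 250 before to 50 after the start, were searched on both strands for 8 motifs, and no match overlapped a match of another motif. The core letters of a glucocorticoid receptor site, AGAACA, had no match in the windows of the 8 members and was present in 19% of 32851 promoter windows of all genes. The core letters of HNF1 (GTTAAT) and C/EBP (TTGCG) sites and of an HNF4 site (CAAAGTCCA) were also not found there, and 7.1%, 17.4% and 0.475% of all windows held them. The core of the cAMP response element, TGACG, was found in Gstz1 alone and in 20.8% of all windows. TATAAA was found in Hal, Hgd and Tdo2 and in 13.6% of all windows. CCAAT and the GC box GGGCGG were added after the sequences had been seen. CCAAT occurred in 6 members, including 3 matches in Tat, and in 37.4% of all windows. GGGCGG occurred in Fah, Gstz1 and Hpd and in 35.7% of all windows, with 5 matches in Fah, of which 4 lie before the start and are in capitals above. Hgd and Fah, whose levels moved together across the libraries, shared none of these motifs, and the windows were 41% and 64.3% G and C. These matches describe the letters of short windows only.

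The first question of the design is how livers that received MSC cells differed from livers that received none. Of the tyrosine route, a pair of late enzymes was higher with MSC. Hgd rose 2.58-fold and Fah 1.72-fold in APAP_MSC compared with APAP, while Tat at the head of the route, Tdo2 of tryptophan, Hal of histidine and Sds of serine had overlapping groups. Hpd, Gstz1 and Uroc1 lay higher in every APAP_MSC library than in any APAP library, but did not pass the test. In all, 2 of the 9 members were called changed, both higher, against a background of 6.19% of tested genes called in either direction and 2.68% called higher. For 5 of the 9, all 3 APAP_MSC libraries lay above all 3 APAP libraries, against 13.7% of tested genes. The members' median difference was 0.48 on the log2 scale beside -0.01 over all tested genes. In RNA from whole liver, fewer cells of a type and less RNA per cell cannot be told apart.

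**Figure D1:**
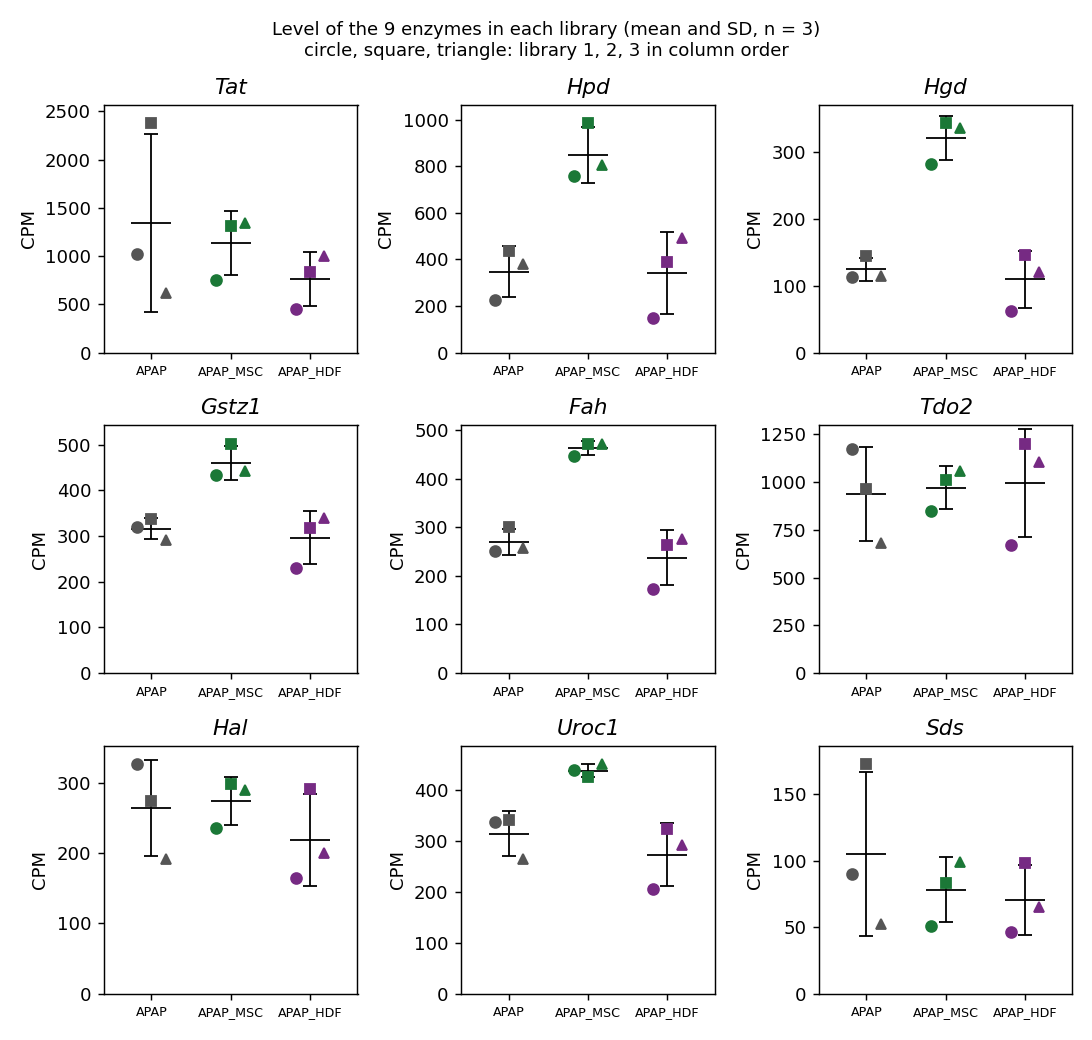
Level of each of the 9 enzymes in each library, in CPM on a linear axis from 0, by group. Circles, squares and triangles are libraries 1, 2 and 3 in column order, and the bars show the mean and SD of 3 libraries. For Hpd, Hgd, Gstz1, Fah and Uroc1 the 3 APAP_MSC libraries sit above the other 6, and for Tat and Sds the widest spread is within APAP.

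Tat, tyrosine aminotransferase, moves the amino group off tyrosine and is the step usually taken to set the rate of the route. It stood at 1019, 2378 and 621 CPM in APAP libraries 1 to 3, at 749, 1312 and 1340 CPM in APAP_MSC and at 447, 838 and 998 CPM in APAP_HDF. APAP library 2 was the highest of all 9 and APAP library 3 was below all 3 APAP_MSC libraries, so the groups overlapped. The difference between APAP_MSC and APAP was -0.24 ± 0.49 (SE; adjusted p = 0.83). Without APAP library 2 it turned to 0.48, so its sign rested on that library.

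Hpd, 4-hydroxyphenylpyruvate dioxygenase, makes homogentisate from the product of Tat and is the enzyme blocked by the drug nitisinone. It stood at 225, 436 and 381 CPM in APAP, at 758, 986 and 805 CPM in APAP_MSC and at 147, 390 and 491 CPM in APAP_HDF. The lowest APAP_MSC library lay well above the highest library of the other groups. The groups without MSC cells were uneven, with APAP_HDF library 1 at 0.334 times the mean of its group's other libraries. The difference from APAP was 1.29 ± 0.41 (SE) with an adjusted p of 0.0993, which missed the threshold despite being close in size to that of Hgd.

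Hgd, homogentisate 1,2-dioxygenase, opens the aromatic ring of homogentisate. It stood at 113, 144 and 115 CPM in APAP, at 282, 343 and 335 CPM in APAP_MSC and at 62.0, 145 and 120 CPM in APAP_HDF. The means were 124 ± 17.3 CPM in APAP (SD, n = 3), 320 ± 33 CPM in APAP_MSC and 109 ± 42.7 CPM in APAP_HDF. The 3 APAP_MSC libraries stood apart from the 6 others, and the difference from APAP was 1.37 ± 0.26 (SE; adjusted p = 0.0202).

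Gstz1, maleylacetoacetate isomerase, turns the opened ring into fumarylacetoacetate and also belongs to the glutathione transferases. It stood at 320.3, 337 and 291 CPM in APAP, at 434, 503 and 442 CPM in APAP_MSC and at 230.3, 319 and 339 CPM in APAP_HDF. This was a small step between tight groups, with a highest to lowest ratio of 1.16 within APAP. The difference from APAP was 0.54 ± 0.15 (SE; adjusted p = 0.0528), just outside the threshold.

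Fah, fumarylacetoacetate hydrolase, makes the final cut into fumarate and acetoacetate. It stood at 251, 300.3 and 258 CPM in APAP, at 446, 472 and 472 CPM in APAP_MSC and at 173, 263 and 277 CPM in APAP_HDF. The APAP_MSC libraries were close to each other and apart from the rest, with a mean of 463 ± 14.8 CPM (SD, n = 3) beside 269.9 ± 26.5 CPM in APAP. The difference from APAP was 0.78 ± 0.16 (SE; adjusted p = 0.0222).

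Because Tat and the later enzymes of the route did not move together, the ratio of Hgd to Tat was taken in each library, a measure chosen after the values had been seen and given without a test. It was 0.111, 0.0605 and 0.185 in APAP, 0.376, 0.261 and 0.250 in APAP_MSC and 0.139, 0.173 and 0.120 in APAP_HDF. Every APAP_MSC library had more Hgd per Tat than any other library. The ratios of the other 3 later enzymes to Tat, taken in the same way, overlapped. APAP library 3, with the lowest Tat of its group, stood at 0.613 for Hpd, 0.415 for Fah and 0.468 for Gstz1, beside 0.600, 0.352 and 0.330 in APAP_MSC library 3. Compared per kilobase of exon, which allows levels of different genes to be set side by side, Tat had the highest mean of the 9 in APAP at 564 ± 388 CPM per kb (SD, n = 3) and Hpd was 247 ± 77.8, a gap within the spread of Tat, whose lowest APAP library stood at 262 CPM per kb. In APAP_MSC, Hpd was the highest at 605 ± 85.8 CPM per kb beside 477 ± 140 for Tat, a gap within their spread. Hal had the lowest mean in every group, from 41.1 ± 12.3 CPM per kb in APAP_HDF to 51.5 ± 6.42 in APAP_MSC, within the spread of Sds at 54.5 ± 20.4 and 60.5 ± 19.0 there. Between these, Hgd stood at 72.9 ± 10.1 CPM per kb in APAP, close to Sds at 81.4 ± 47.8 and Uroc1 at 90.5 ± 12.6, neighbours that did not differ beyond their spread. In APAP_MSC it stood at 188 ± 19.4 CPM per kb, above Uroc1 at 126 ± 3.57 and near Gstz1 at 214 ± 17.4.

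Tdo2, tryptophan 2,3-dioxygenase, opens the indole ring of tryptophan and starts the kynurenine route. It stood at 1171, 964 and 679 CPM in APAP, at 846, 1012 and 1055 CPM in APAP_MSC and at 672, 1201 and 1107 CPM in APAP_HDF. The lowest libraries of APAP and APAP_HDF were almost level and all groups overlapped. The difference between APAP_MSC and APAP was 0.05 ± 0.23 (SE; adjusted p = 0.931).

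Hal, histidine ammonia-lyase, releases ammonia from histidine to give urocanate. It stood at 326, 274 and 192 CPM in APAP, at 235, 298 and 289 CPM in APAP_MSC and at 164, 291 and 199.95 CPM in APAP_HDF. The groups overlapped, with a difference of 0.05 ± 0.23 (SE; adjusted p = 0.923) between APAP_MSC and APAP.

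Uroc1, urocanate hydratase, acts on the product of Hal. It stood at 338, 342 and 264 CPM in APAP, at 438, 426 and 450.5 CPM in APAP_MSC and at 205, 322 and 292 CPM in APAP_HDF. Unlike for Hal, the APAP_MSC libraries were tight and above all others. The difference from APAP was 0.48 ± 0.16 (SE; adjusted p = 0.107) and did not pass.

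Sds, serine dehydratase, turns serine into pyruvate and ammonia and feeds glucose synthesis. It stood at 90.1, 172 and 52.1 CPM in APAP, at 51.2, 83.5 and 99.2 CPM in APAP_MSC and at 46.6, 98.5 and 65.5 CPM in APAP_HDF. Its libraries ranked in the same order as those of Tat within APAP and within APAP_MSC, and APAP library 2 was again the highest of the 9. The difference between APAP_MSC and APAP was -0.43 ± 0.45 (SE; adjusted p = 0.642) and turned to 0.14 without APAP library 2.

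**Figure D2:**
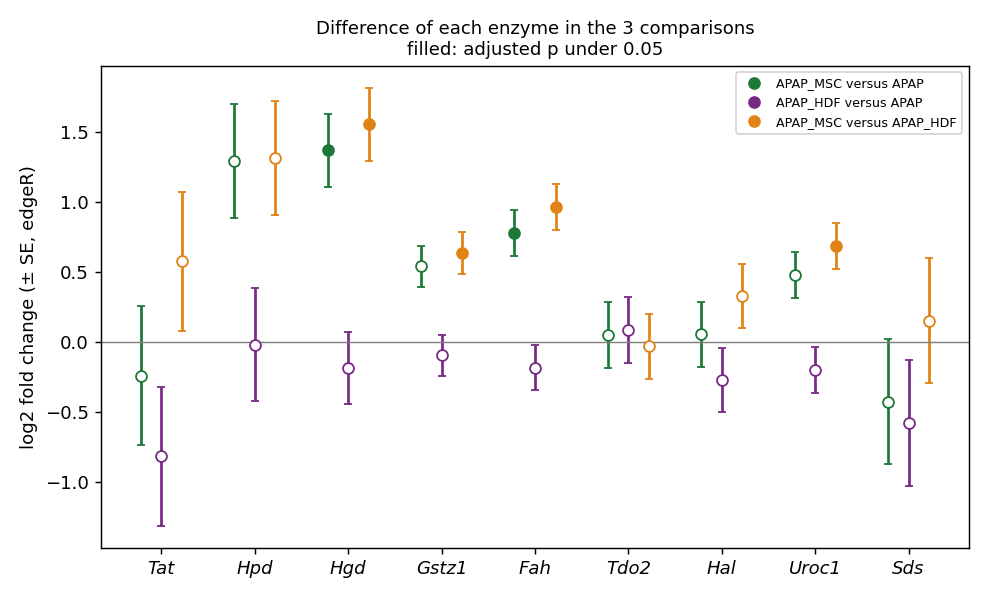
Log2 fold change of each enzyme with its SE from the edgeR fit, for the 3 comparisons by colour, and filled where the adjusted p was under 0.05. Hgd and Fah are filled in both comparisons with APAP_MSC, Gstz1 and Uroc1 only against APAP_HDF, and no enzyme is filled for APAP_HDF against APAP.

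The calls against APAP rested on few libraries. Leaving out APAP library 1 or 3, or any APAP_MSC library, left 0 of the 9 members called by edgeR, with Hgd between 1.32 and 1.498 and Fah between 0.75 and 0.87 over all 9 such fits. Leaving out APAP_HDF library 1, which is in neither group but enters the shared estimate of the spread, raised the count to 5, with Hpd, Gstz1 and Uroc1 joining. Without APAP_HDF library 3 it was 3, with Gstz1. DESeq2 called 4 members and a fit of the 6 libraries of these groups alone called 5, while without a filter on low counts Fah and Gstz1 were called and Hgd, at an adjusted p of 0.0609, was not.

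**Figure D3:**
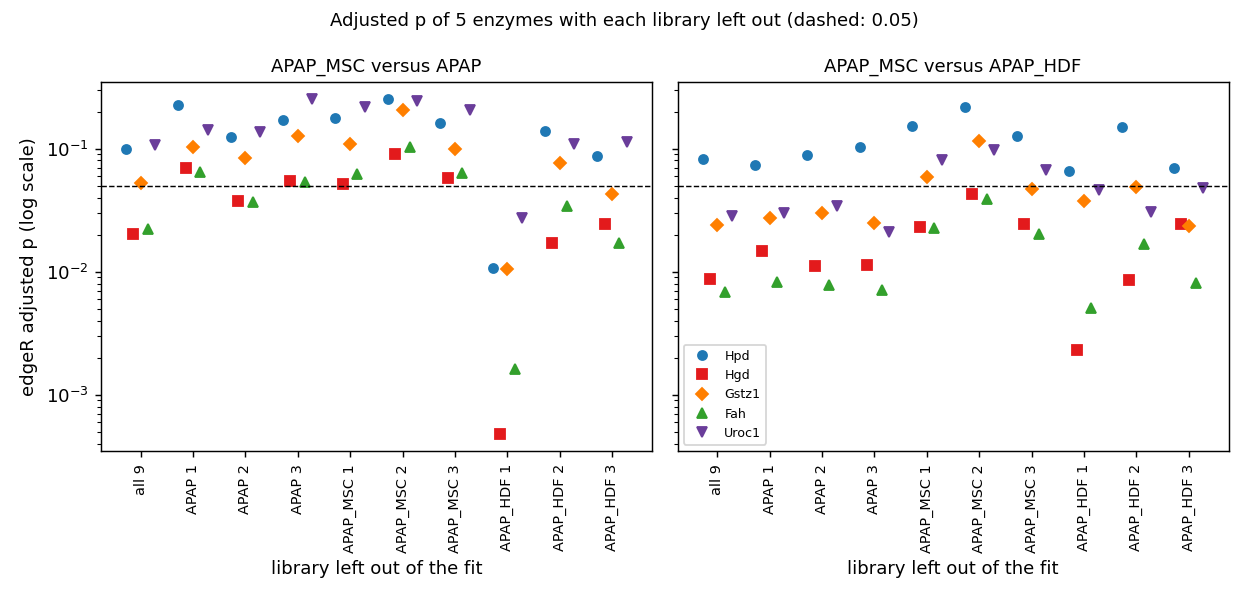
Adjusted p of 5 enzymes from the edgeR fit, on a log axis with 0.05 dashed, with all 9 libraries and with each library left out in turn, for APAP_MSC against APAP (left) and against APAP_HDF (right). On the left, Hgd and Fah cross 0.05 without 5 of the libraries and all 5 enzymes lie under it without APAP_HDF library 1. On the right, Hgd and Fah stay under it throughout.

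HDF cells served as the other injected cell type, and the comparison of APAP_HDF with APAP asks what an injection of such cells does alone. None of the 9 enzymes differed by the test. edgeR called 0 members, against 0% of tested genes, DESeq2 and limma-voom also called 0 members, and 0 members had an unadjusted p under 0.05. Over all genes, 1458 (8.29%) had such a p, and DESeq2 called 83 genes and limma-voom 0. The differences ran from -0.82 ± 0.50 (SE) for Tat to 0.08 ± 0.23 for Tdo2, with adjusted p from 0.684 to 0.995, and the groups overlapped for every member, where 11.7% of tested genes were apart. Hpd stood at -0.02 ± 0.40, Hgd at -0.19 ± 0.26, Gstz1 at -0.09 ± 0.15, Fah at -0.18 ± 0.16, Hal at -0.27 ± 0.23, Uroc1 at -0.20 ± 0.16 and Sds at -0.58 ± 0.45 (all SE). Of the 9, 1 was above 0, and the median was -0.19. A missed threshold does not show that the groups were alike, and 1 library was low throughout. APAP_HDF library 1 was the lowest of its group for all 9 members, whereas it was the lowest for 39.2% of all tested genes. Its level was 0.334 times the mean of the other APAP_HDF libraries for Hpd and 0.700 times for Gstz1, with the other members between these. Without it, the differences of Hpd, Hgd and Gstz1 from APAP turned to 0.34, 0.093 and 0.055, and again 0 members were called.

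The direct comparison of APAP_MSC with APAP_HDF holds the injection constant and varies the cells. Hgd, Gstz1 and Fah of tyrosine breakdown and Uroc1 of histidine breakdown were higher with MSC. Hgd rose 2.93-fold, Fah 1.95-fold, Uroc1 1.60-fold and Gstz1 1.55-fold, so that 4 of the 9 were called, against 8.79% of tested genes called and 4.78% called higher. The log2 differences were 1.55 ± 0.26 (SE; adjusted p = 0.00871) for Hgd and 0.96 ± 0.16 (adjusted p = 0.00678) for Fah. Those of Gstz1 and Uroc1 were 0.63 ± 0.15 (adjusted p = 0.024) and 0.68 ± 0.16 (adjusted p = 0.0284). Hpd stood at 1.31 ± 0.41 (adjusted p = 0.0817). Each of these 5 enzymes had all 3 APAP_MSC libraries above all 3 APAP_HDF libraries, against 16.8% of tested genes. Tat at 0.58 ± 0.49 (adjusted p = 0.52), Tdo2 at -0.03 ± 0.23 (adjusted p = 0.948), Hal at 0.33 ± 0.23 (adjusted p = 0.417) and Sds at 0.15 ± 0.45 (adjusted p = 0.868) overlapped. The median of the members was 0.63 beside -0.02 over all genes. Hgd and Fah were called with each of the 9 libraries left out in turn, at adjusted p up to 0.0425 and 0.0393. Leaving out APAP_MSC library 1 or 2 left 2 members called, and leaving out APAP_MSC library 3 left 3, without Uroc1. Both comparisons with APAP_MSC use the same APAP_MSC libraries, so their values stand side by side and are not separate evidence.

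Single libraries stood low or high for most members. APAP_MSC library 1 was the lowest of its group for 8 of 9 members, beside 33.6% of tested genes, and APAP library 2 the highest of its group for 7 of 9, beside 30.2%. Tat and Sds varied most within APAP, with highest to lowest ratios of 3.83 and 3.31, while Fah and Hgd differed by 1.19 and 1.27. The genes most like each member over the 9 libraries, by Pearson's r of log2 CPM among 9867 genes with a mean of at least 5 CPM, are named as a description, since the libraries share groups and scaling. Hgd was most like Ccs (r = 0.996), a copper chaperone gene, and Aldh4a1 (r = 0.992), of proline breakdown. Fah was most like Bphl (r = 0.995) and Ccs (r = 0.993), and Hpd was most like Asgr1 (r = 0.994), a hepatocyte receptor gene, and Cd302 (r = 0.988). Gstz1 was most like Sdhc (r = 0.993) and Tmem150a (r = 0.990), and Uroc1 most like Sdha (r = 0.986) and Tmco1 (r = 0.983), so that subunits of succinate dehydrogenase came up for both. Sds was most like Arg1 (r = 0.966), the last enzyme of the urea cycle, and Sgk1 (r = 0.941), a kinase gene induced by glucocorticoids. Tat was most like Tshz1 (r = 0.937) and Tbx2 (r = 0.920), Tdo2 most like Fbxo21 (r = 0.959) and Selenoo (r = 0.939), and Hal most like Adamtsl2 (r = 0.967) and Stard5 (r = 0.946). Sgk1 repeated the library order of Sds, with 42.9, 84.6 and 21.8 CPM in APAP, 11.2, 25.9 and 31.4 CPM in APAP_MSC and 14.6, 42.1 and 21.9 CPM in APAP_HDF.

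The other enzymes of the same routes were read from lists. Over all tested genes, 2.68% were called higher in APAP_MSC than in APAP and 4.78% higher than in APAP_HDF. The list for phenylalanine and tyrosine holds, outside the members, 4 tested genes that supply or recycle the cofactor tetrahydrobiopterin. Of these, 2 were called higher in APAP_MSC than in APAP and none lower. Qdpr and Pcbd1, which regenerate that cofactor, rose by 0.83 ± 0.16 (SE; adjusted p = 0.0182) and 0.61 ± 0.12 (adjusted p = 0.0176). Gch1, which makes its precursor from GTP, stood at -0.02 ± 0.18 (adjusted p = 0.962), and the regulator of Gch1, Gchfr, at 0.43 ± 0.17 (adjusted p = 0.161). The count of 2 fell to 0 without APAP_MSC library 1 or 2. Against APAP_HDF the count was 2, and 0 without APAP_MSC library 2. Without APAP_HDF library 1 the count against APAP was 3.

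**Figure D4:**
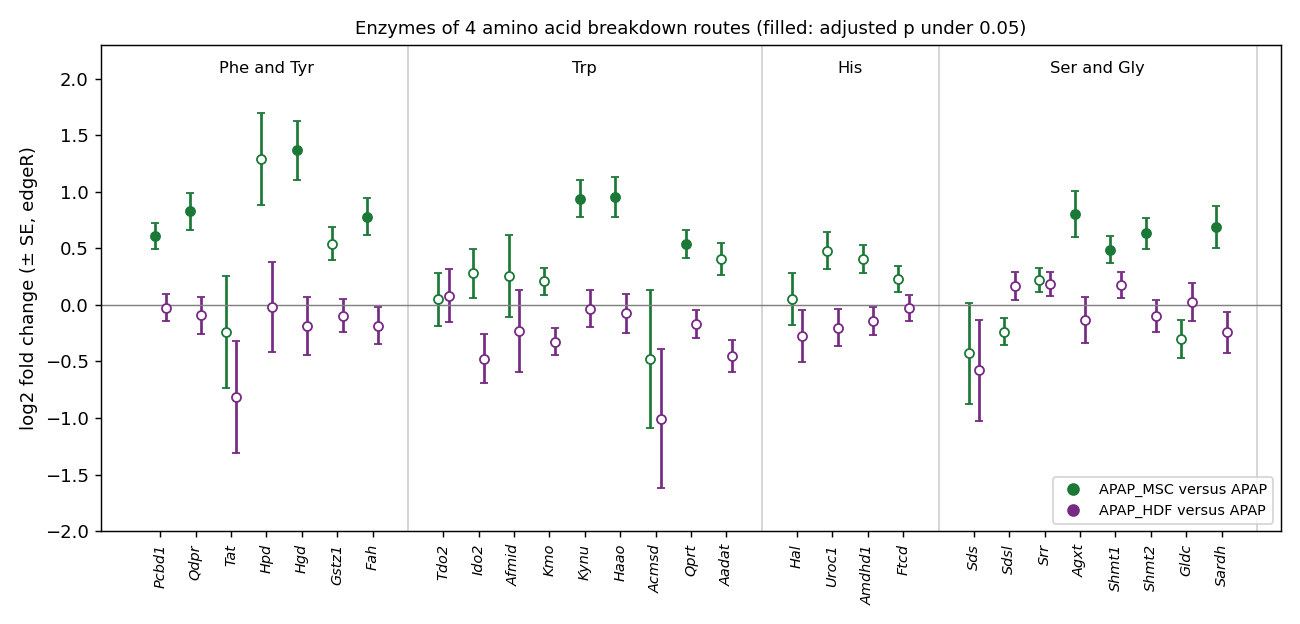
Log2 fold change with its SE from the edgeR fit for enzymes of 4 breakdown routes, in APAP_MSC against APAP and APAP_HDF against APAP, filled where the adjusted p was under 0.05. Filled points, all of them for APAP_MSC and all above 0, include Qdpr, Hgd and Fah for phenylalanine and tyrosine, Kynu, Haao and Qprt for tryptophan, and Agxt and Shmt2 for serine and glycine, while Tat, Tdo2, Hal and Sds are open.

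In tryptophan breakdown, 3 of 10 tested genes outside the members were called higher in APAP_MSC than in APAP. They lie downstream of Tdo2, towards NAD. Haao, which makes the direct precursor of quinolinate, stood at 153, 195 and 155 CPM in APAP, at 319, 362 and 293 CPM in APAP_MSC and at 117, 184 and 177 CPM in APAP_HDF, and rose by 0.96 ± 0.17 (SE; adjusted p = 0.0154). Kynu, kynureninase, rose by 0.94 ± 0.16 (adjusted p = 0.0139), and Qprt, which turns quinolinate into a nucleotide, by 0.54 ± 0.12 (adjusted p = 0.03). Ido2, a relative of Ido1 that like Tdo2 acts on tryptophan, had 0.28 ± 0.22 (adjusted p = 0.499), and Kmo, which hydroxylates kynurenine, 0.21 ± 0.12 (adjusted p = 0.336). The count was 2 without APAP library 2 or 3 or APAP_MSC library 1 or 3, and 0 without APAP_MSC library 2. Compared with APAP_HDF, 5 of the 10 were higher, with Kmo at 0.54 ± 0.12 (adjusted p = 0.0205) and Aadat, a kynurenine aminotransferase, at 0.86 ± 0.14 (adjusted p = 0.00595) joining. For Aadat, the value in APAP_HDF against APAP was -0.45 ± 0.14 (adjusted p = 0.535).

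The histidine route has 2 further enzymes after Uroc1. Amdhd1, imidazolonepropionase, stood at 126, 156 and 123 CPM in APAP, at 170, 187 and 181 CPM in APAP_MSC and at 112, 140 and 115 CPM in APAP_HDF. It did not overlap either group, with 0.41 ± 0.12 (SE; adjusted p = 0.0752) against APAP, and rose by 0.55 ± 0.12 (adjusted p = 0.0217) against APAP_HDF. That call was lost without any 1 of the 3 APAP_MSC libraries or without APAP_HDF library 1 or 3. Ftcd, which passes the last fragment to folate, stood at 0.23 ± 0.12 (adjusted p = 0.266) against APAP. Hal was therefore the member of this route whose APAP_MSC libraries were not apart from APAP.

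Of 14 tested genes of serine, glycine and threonine breakdown besides Sds, 4 were called higher in APAP_MSC than in APAP and none lower. Agxt, which moves the amino group of alanine or serine, rose by 0.80 ± 0.21 (SE; adjusted p = 0.0455), and Sardh, which makes glycine from sarcosine, by 0.69 ± 0.18 (adjusted p = 0.0482). Shmt2 and Shmt1, which interconvert serine and glycine in mitochondria and cytosol, rose by 0.63 ± 0.14 (adjusted p = 0.0257) and 0.49 ± 0.12 (adjusted p = 0.0343). Sdsl, a relative of Sds, went the other way, with 26.5, 25.5 and 28.9 CPM in APAP, 25.3, 23.5 and 19.8 CPM in APAP_MSC and 27.3, 34.3 and 29.2 CPM in APAP_HDF. The APAP_MSC libraries were below all others, with -0.24 ± 0.12 (adjusted p = 0.277) against APAP and -0.40 ± 0.12 (adjusted p = 0.0601) against APAP_HDF, neither of which passed. The count of 4 was 0 without APAP library 3 or any APAP_MSC library, 1 without APAP library 1, 2 without APAP_HDF library 2 and 6 without APAP_HDF library 1. Against APAP_HDF 6 of the 14 were higher, with Gcat of threonine breakdown at 1.07 ± 0.20 (adjusted p = 0.0095) among them. Without APAP_MSC library 1, 2 or 3 that number was 3, 0 or 5, and without APAP_HDF library 1 it was 3.

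In serine synthesis, none of 3 tested genes passed against APAP. Psat1, a transaminase of that route, stood at 31.5, 28.4 and 21.99 CPM in APAP, at 23.2, 16.5 and 24.5 CPM in APAP_MSC and at 34.3, 39.0 and 36.1 CPM in APAP_HDF. It fell by 0.77 on the log2 scale against APAP_HDF, with an SE of 0.16 (adjusted p = 0.0168), a call lost without APAP_MSC library 2 or APAP_HDF library 2. The APAP_HDF libraries were above all others, and the difference between APAP_HDF and APAP was 0.42 ± 0.16 (adjusted p = 0.582).

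Genes known for the hormones that induce Tat, Tdo2 and Sds were set beside them. Among 8 glucocorticoid-induced genes, 1 was called lower in APAP_MSC than in APAP, beside 3.51% of tested genes, and 2 of the 8 had a positive difference. The median was -1.05 beside -0.01 over all genes. Fkbp5, which encodes a chaperone of the glucocorticoid receptor, stood at 129, 120 and 133 CPM in APAP, at 63.3, 52.2 and 74.9 CPM in APAP_MSC and at 130, 123 and 178 CPM in APAP_HDF. All 3 APAP_MSC libraries were below the 6 others, and the difference was -1.004 ± 0.16 (SE; adjusted p = 0.00978) against APAP and -1.18 ± 0.16 (adjusted p = 0.00264) against APAP_HDF. The call against APAP was lost without APAP_MSC library 2, and the call against APAP_HDF was made with each of the 9 libraries left out in turn. Dusp1 at -1.17 ± 0.34 (adjusted p = 0.0795), Per1 at -1.10 ± 0.42 (adjusted p = 0.161) and Zbtb16 at -1.16 ± 0.45 (adjusted p = 0.169) did not pass. None of 10 glucagon and cAMP-induced genes passed against APAP. Their median was -0.21, and 4 of the 10 had a positive difference. Igfbp1 stood at -1.38 ± 0.37 (adjusted p = 0.0651), Pck1, the gluconeogenic enzyme PEPCK, at -1.30 ± 0.59 (adjusted p = 0.236) and Nr4a1 at -0.55 ± 0.26 (adjusted p = 0.233). Gls2, a liver glutaminase, stood at 0.45 ± 0.20 (adjusted p = 0.209) and G6pc, the enzyme that releases glucose, at 1.80 ± 0.93 (adjusted p = 0.313), both with all APAP_MSC libraries above all APAP libraries. Of 14 regulators, 2 were called higher, beside 2.68% of tested genes, 7 had a positive difference, and the list's median was 0.02. Gcgr, the glucagon receptor, rose by 0.57 ± 0.12 (adjusted p = 0.0257) and Cebpa by 0.59 ± 0.15 (adjusted p = 0.0459). Cebpd at -0.52 ± 0.18 (adjusted p = 0.121) and Foxo1 at -0.47 ± 0.23 (adjusted p = 0.266) did not pass. The count of 2 called regulators was 0 without APAP library 1 or any APAP_MSC library. It was 1 without APAP library 2 or 3 or APAP_HDF library 2. No protein or hormone was measured here.

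Marker genes of other cell types were read from the same whole-liver RNA, and some of them differed between APAP_MSC and the other groups. The 11 genes of secreted hepatocyte proteins, Alb and Ttr among them, were abundant in every library, which does not tell isolated hepatocytes from whole liver. Their sum ran from 119188 to 145783 CPM in APAP, 125711 to 142854 CPM in APAP_MSC and 118196 to 152813 CPM in APAP_HDF. None of the 11 was called in APAP_MSC against APAP, with Ttr at 0.58 ± 0.18 (SE; adjusted p = 0.0727) and Apob at -0.55 ± 0.21 (adjusted p = 0.149). Against APAP_HDF, 2 of the 11 were called higher, Ambp by 0.67 ± 0.15 (adjusted p = 0.0222) and Apoc3 by 0.42 ± 0.12 (adjusted p = 0.0477). The summed level, most of which is Alb, overlapped between all groups. The call of Ambp was lost without APAP_MSC library 1 or 2, and that of Apoc3 with any library other than APAP library 1 left out. Of 10 monocyte and macrophage markers, 5 were called lower in APAP_MSC than in APAP, against 3.51% of tested genes. The 10 summed to 142 to 196 CPM in APAP, 118 to 125 CPM in APAP_MSC and 121 to 142 CPM in APAP_HDF. Spp1, also on the cholangiocyte list, held a large part of the sums of both lists. It stood at 51.9 to 112 CPM in APAP, 78.6 to 84.8 CPM in APAP_MSC and 41.6 to 44.7 CPM in APAP_HDF. Its difference between APAP_MSC and APAP was 0.08 ± 0.22 (adjusted p = 0.871), unlike the markers that were lower. Cd68 had a difference of -1.25 ± 0.16 (adjusted p = 0.00433) and was called also with each library left out. Of 6 neutrophil markers 4 were lower, with sums of 9.54 to 12.7 CPM, 2.87 to 4.21 CPM and 3.37 to 10.97 CPM in that order of groups. The 4 were S100a8, S100a9, Mmp8 and Retnlg, and Mmp8 and Retnlg had means of no more than 0.44 CPM in any group. S100a8 was also lower in all APAP_HDF libraries than in any APAP library, at -1.35 ± 0.41 (adjusted p = 0.535). Ly6g, a defining marker, had too few counts to be tested. Of 8 sinusoidal endothelial markers 3 were lower, with sums of 186 to 283 CPM, 133 to 151 CPM and 180 to 254 CPM. None of 6 Kupffer cell markers and none of 7 cholangiocyte markers passed against APAP, nor did any of 4 T and NK cell markers, which summed to no more than 2.01 CPM in any library, while 1 of 8 stellate cell markers was lower. Kupffer cell markers summed to 109 to 271 CPM, 92.4 to 161 CPM and 61.8 to 138 CPM, stellate cell markers to 207 to 281 CPM, 184 to 209 CPM and 153 to 220 CPM, and cholangiocyte markers to 96.9 to 150 CPM, 119 to 134 CPM and 101 to 106 CPM. Of the cholangiocyte markers 5 were higher than in APAP_HDF, beside 4.78% of tested genes, with Spp1 among them at 0.91 ± 0.22 (adjusted p = 0.0336). The others called, Krt19, Epcam, Cldn7 and Tspan8, had means of no more than 3.03 CPM in any group. Sox9 of the same list went the other way at -0.63 ± 0.19 (adjusted p = 0.063). All its APAP_MSC libraries lay below all APAP_HDF libraries. Leaving out a library moved the macrophage count between 2 and 7, the neutrophil count between 0 and 5 and the endothelial count between 0 and 6, each lowest without APAP_MSC library 2, and the cholangiocyte count against APAP_HDF between 0 and 5, lowest without the same library.

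Markers of hepatocyte zones were also read. The genes of hepatocytes around the central vein, where APAP injury lies, summed to 749 to 1099 CPM in APAP, 1826 to 2461 CPM in APAP_MSC and 581 to 1268 CPM in APAP_HDF, so that APAP_MSC was apart. Cyp2e1, Cyp1a2, Rgn and Cyp27a1 made up most of that sum, and for 3 of the 10 genes, Cyp1a2, Rgn and Cyp27a1, all APAP_MSC libraries lay above all APAP libraries. Of the 10, 2 were called higher than in APAP, beside 2.68% of tested genes, Rgn by 3.14 ± 0.64 (SE; adjusted p = 0.028) and Cyp27a1 by 0.85 ± 0.12 (adjusted p = 0.00555). Of 8 periportal genes outside the members, Cyp2f2 at 0.91 ± 0.14 (adjusted p = 0.00768) and Ass1 at 0.77 ± 0.19 (adjusted p = 0.0389) rose. Pck1 at -1.30 ± 0.59 (adjusted p = 0.236) and Cdh1 at -0.45 ± 0.22 (adjusted p = 0.264) did not pass. Both had all APAP_MSC libraries below all APAP libraries. With members included, 11 periportal genes summed to 7240 to 11041 CPM in APAP, 9066 to 9773 CPM in APAP_MSC and 5971 to 9245 CPM in APAP_HDF. These sums overlapped, and 7 of the 11 genes had a positive difference between APAP_MSC and APAP. Of the members of that zone, Sds and Hal had overlapping groups, while Uroc1 was apart from APAP without passing the test and was called higher than in APAP_HDF. Cyp27a1 and Cyp2f2 were also called with each library left out, while the calls of Rgn and Ass1 were lost without APAP library 1 or 3, any APAP_MSC library or APAP_HDF library 2, and that of Rgn also without APAP library 2. The part of cell makeup and of zonation in the differences of Hgd, Fah, Gstz1 and Uroc1 was not tested.

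Several members share their place in the genome with other genes, and the sources used here do not state whether counting used strand, so reads of such pairs cannot be told apart where they overlap. In the GENCODE M21 annotation of GRCm38, Hpd overlaps Psmd9 on the opposite strand and the long noncoding Gm26745 on its own strand. Hgd overlaps the antisense gene Gm46559, Gstz1 overlaps Pomt2 and Gm6566, and Sds overlaps Plbd2 and Gm15690, all on the opposite strand. Fah, Tat, Tdo2, Hal and Uroc1 had no overlapping gene there.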

How the data were processed

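Poly(A) RNA of mouse liver was sequenced in 9 libraries, per the labels' protocols with TRIZOL extraction and a Tecan mRNA-seq kit. HISAT2, Subread and DESeq2 with the builds mm39 and GRCm39 were used per the submitters' processing notes, without versions, and strand use is not given in the sources used here. The authors deposited raw whole-number counts per gene symbol and a scaled signal of normalized counts. The ratio of raw to normalized values was constant within a library and matched DESeq2's size factor to within 0.0699%. Tests used the raw counts. No column belonged to another sample. Column headers give the group but no replicate number.

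Genes were filtered with filterByExpr, which kept 17582 genes with 99.966% of counts. They were scaled by TMM and fitted with edgeR 4.0.16 in R 4.3.3 (robust dispersion and quasi-likelihood, group as the only term, all 9 libraries, common biological coefficient of variation 0.197). The steps were tested on simulated data. Alternatives included DESeq2 1.42.0 and limma-voom (limma 3.58.1). The precision of each value rests on the spread of 3 libraries. A limit of 3 counts, for a gene without reads, corresponds to 0.0475 to 0.0563 CPM and covers counting error only. Levels per kilobase used exon lengths of GENCODE M21 (GRCm38), a different build from that of the counts.

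Members and the 21 gene lists were chosen with earlier results of these data known. Of 178 list symbols, 177 were in the table. Every member is named in each comparison. Of the 4 breakdown lists and serine synthesis any gene may be named, and of each other list up to 4 genes with the smallest p in APAP_MSC against APAP. For likeness, the 2 genes with the highest r per member are named. Genes named for the comparison with APAP_HDF outside this rule, the ratios to Tat and the values of Sgk1, G6pc, Cdh1 and Spp1 were chosen after they had been seen. The results of 1 gene are not reported here, and it was left out of the lists.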

Additional observations from a re-analysis of the deposited data

How the results depend on the processing

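No paired analysis was possible because the column headers carry no replicate numbers. The number of members called in APAP_MSC against APAP was 2, with 4 by DESeq2, 5 from the 6 libraries of these groups alone and 0 to 5 with 1 library left out. Against APAP_HDF it was 4, with 2 to 4 when 1 library was left out. For all genes the counts were 1088 and 1545, with 2050 and 2531 by DESeq2 and 87 to 1676 and 324 to 1730 with 1 library left out, lowest without APAP_MSC library 2. APAP_HDF against APAP had 0 genes called, 83 by DESeq2, 10 without a filter on low counts and 0 to 31 with 1 library left out. Without scaling of library totals the median of all genes moved to -0.12 against APAP and -0.14 against APAP_HDF, and the differences of Hal and Tdo2 between APAP_MSC and APAP turned to -0.052 and -0.057. With limma-voom, Tdo2 against APAP_HDF was 0.0034. With 1 library left out, signs turned for these uncalled values. In APAP_MSC against APAP, Tat ran from -0.58 to 0.48, Sds from -0.75 to 0.14, Hal from -0.13 to 0.25 and Tdo2 from -0.13 to 0.26. Against APAP_HDF, Sds ran from -0.062 to 0.48 and Tdo2 from -0.24 to 0.13. In APAP_HDF against APAP, Hpd ran from -0.37 to 0.34, Hgd from -0.45 to 0.093, Gstz1 from -0.20 to 0.055, Tdo2 from -0.11 to 0.29 and Fkbp5 from -0.0083 to 0.28. The cause of these shifts was not tested. A set of genes, not the same as those named in the text, was followed through these fits. Of 27 of them called in APAP_MSC against APAP, Cd68, Chil3, Cyp27a1 and Cyp2f2 kept the call with each library left out, as did 10 of 34 against APAP_HDF. Some named genes, Spp1 among them, were not followed in this way in every comparison.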

Other observations

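Genes for the breakdown of the branched-chain amino acids and lysine were read as a further list. All 18 tested genes of it had a positive difference between APAP_MSC and APAP, with a median of 0.32 on the log2 scale beside -0.01 over all tested genes. Of the 18, edgeR called 4 higher, against 2.68% of tested genes. Hibadh, of valine breakdown, rose by 0.85 ± 0.15 (SE; adjusted p = 0.0126) and Bckdhb, a subunit of the branched-chain keto acid dehydrogenase, by 0.65 ± 0.16 (adjusted p = 0.0343). Aldh7a1, of lysine breakdown, rose by 0.56 ± 0.15 (adjusted p = 0.0483) and Pcca, a subunit of propionyl-CoA carboxylase, by 0.41 ± 0.11 (adjusted p = 0.0462). The count was 0 without APAP_MSC library 2, 1 without APAP library 1 or 3 or APAP_MSC library 1 or 3, 2 without APAP library 2 or APAP_HDF library 2, and 6 without APAP_HDF library 1. Against APAP_HDF, 9 of the 18 were higher, beside 4.78% of tested genes, and 5 and 2 without APAP_MSC library 1 and 2. In APAP_HDF against APAP, 2 of the 18 differences were positive and edgeR called 0. Of 10 amino acid transporters of hepatocytes, Slc6a12, a betaine carrier, rose against APAP by 0.60 ± 0.14 (adjusted p = 0.0315), a call lost without APAP library 1 or 3, any APAP_MSC library or APAP_HDF library 2.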
